A study of Mus musculus with 8 samples.

Results

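Glycerol kinase (Gk) and 9 further enzymes of triglyceride synthesis and breakdown were followed in the lower crypts of the mouse jejunum after a fast. The 10 genes were Gk, Gpd1, Gpam, Lpin1, Lpin2, Mogat2, Dgat1, Dgat2, Pnpla2 and Lipe, out of 19528 genes tested, and 13 of the 39429 non-control probes carry their names. Gk, named Gyk in the files, and Dgat2 were picked for their difference between fasted and fed crypts, so they were selected on that measured difference, which is given for both as a description without a test. The other 8 were chosen by their role, with earlier results of these arrays known. The 2 genes picked stood 1.92 (Gk) and 1.47 (Dgat2) higher in fasted crypts on the log2 scale. Of the other 8, 7 were also higher, where 44.5% of all genes were. None of the 8 passed the test, and 0% of all genes did.

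A triglyceride is built on glycerol 3-phosphate. Glycerol kinase makes that molecule from free glycerol, and glycerol 3-phosphate dehydrogenase makes it from a glycolytic intermediate. Acyltransferases add the first fatty acids, lipins remove the phosphate to leave diglyceride, and DGAT enzymes add the last fatty acid. The absorptive cells of the small intestine also rebuild triglyceride from absorbed monoglyceride through MGAT and DGAT enzymes and export it in chylomicrons, while lipases release fatty acids from triglyceride stored in lipid droplets.

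The data are 8 single-colour arrays of RNA from lower jejunal crypts, 1 array per mouse, cut by laser capture from tissue fixed in Methacarn and embedded in paraffin. All mice were heterozygous for the reporter allele Lgr5EGFP-IRES-CreERT2/+, were 4 to 6 weeks old, received etoposide, a DNA-damaging topoisomerase poison, at 80 mg/kg into the tail vein, and were sampled 3 h later. The 4 fasted mice had no food for 24 h before the injection and the 4 fed mice had food, and each group was labelled as 2 males (replicates 1 and 2) and 2 females (replicates 3 and 4). Moistened pellets were offered to both groups after the injection, so fasting cannot be told apart from feeding after it, and mice without etoposide are not part of the comparison.

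Levels are log2 signals relative to the 75th percentile of the same array, so they compare arrays for 1 probe and not probes with each other. Differences are fasted minus fed with labelled sex as a term, and the number of arrays limits their precision. On average, well above background lay 60.9% ± 5.26 of probes on fasted arrays and 58.3% ± 4.70 on fed arrays (SD, n = 4 each). Fasted replicate 3 stood apart, with a median correlation of 0.853 to the other arrays across genes, where the medians of the other arrays ran from 0.924 to 0.952. It was also alone on its slide and the only array of a later scan day. Fed replicate 4 is labelled female, but neither Xist probe was above background on it (-6.05 and -6.01) while Eif2s3y, a Y-linked gene, was (-1.39). Its label is therefore in doubt wherever labelled sex is used. Without that array the difference of Gk was 2.20 and that of Dgat2 was 1.61, and without fasted replicate 3 they were 2.06 and 1.45.

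The sequences of the probes behind the Gk, Dgat2 and Dgat1 results are shown, and each of these genes was read by a single probe. So were Gpd1, Mogat2, Pnpla2 and Lipe, whose probe sequences are not shown. They come from the deposited scanner files, 5′ to 3′, with positions in mm9 as the files give them. The Gk probe lies at chrX:82956390-82956449 on the minus strand. The Dgat2 probe lies at chr7:106302215-106302274 on the minus strand. The Dgat1 probe is given at chr15:76333128-76333274 on the minus strand, a span of 147 bases for 60 bases of probe, so its match to the genome is interrupted.
Gk: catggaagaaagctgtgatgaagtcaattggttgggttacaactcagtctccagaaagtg
Dgat2: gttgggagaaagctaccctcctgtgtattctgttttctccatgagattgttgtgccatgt
Dgat1: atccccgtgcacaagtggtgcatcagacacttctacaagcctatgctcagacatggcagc
Their GC content was 43.3% for Gk, 45.0% for Dgat2 and 53.3% for Dgat1, where the median over all probes was 41.7%. The letters AATAAA, the most common polyadenylation signal, were searched on the printed strand only and were absent from these 3 probes. They were in 5 of the 13 probes of the 10 genes and in 12.6% of all probes. The probes of Mogat2, Dgat2, Pnpla2 and Lipe all lie on chromosome 7.

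Markers of the cells that a lower crypt can hold were read beside these genes. Of 20 markers of absorptive enterocytes, 18 were tested and all 18 were higher in fasted crypts. The median difference was 1.13, and the range was 0.48 for Slc2a5, a fructose transporter, to 2.39 for Sis, the sucrase of the brush border. For 7 of the 18 all fasted arrays lay above all fed arrays, against 2.96% of all genes. Slc2a2 was well above background on 2 arrays and Cubn on 0. Their summed signal, in units of the 75th percentile, was 79.2, 85.1, 48.4 and 53.8 on fasted arrays 1 to 4, against 33.4, 28.5, 48.9 and 37.1 on fed arrays 1 to 4. Fasted replicates 1 and 2 were highest, and fasted replicate 3 lay just under fed replicate 3. In RNA of whole captured crypts, a different number of cells of a type and a different amount of RNA per cell cannot be told apart. The part of these markers in the results below was not tested.

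The 9 tested markers of Paneth cells all lay lower on the fasted side. Their median difference was -0.44, or -0.12 with normexp, -0.15 with quantile normalisation and -0.21 in the authors' matrix. Within the 3 slides that held both groups the medians were -0.99, -0.44 and 0.003. For 2 of the 9 all fasted arrays lay below all fed arrays, against 1.97% of all genes. The summed signals of the 9 were 395 to 499 on fasted arrays and 511 to 729 on fed arrays. Paneth cells are secretory cells of the crypt base, and the 5 other listed markers matched no probe by name. Adipocyte markers, of interest because Lipe, Pnpla2 and Gpd1 are abundant in fat, were mostly near background. Adipoq was well above background on 2 arrays, Lep and Car3 on 0, and Plin1 and Cfd on 3. The 4 tested summed to 1.81 to 4.12 on fasted arrays and 1.88 to 9.83 on fed arrays. The highest sum, 9.83, was on fed replicate 4, which was also the highest fed array for Lipe and the lowest for Pnpla2. The differences of these 4 markers ran from -1.70 for Retn to 0.37 for Cidec. For 1 of the 4 all fasted arrays lay below all fed arrays, against 1.97% of all genes. The remaining lists had medians near that of all genes (-0.06), and each of these medians changed sign under at least 1 alternative. Stem cell markers had a median of 0.10 over 9 tested, from -1.11 for Olfm4 to 0.63 for Cdca7. For 1 of these 9 all fasted arrays lay below all fed arrays, against 1.97% of all genes. Their summed signals were 16.2 to 29.7 on fasted arrays and 18.8 to 44.5 on fed arrays, and Lgr5 was above background on 0 arrays. Goblet cell markers had a median of -0.17 over 8 (285 to 328 on fasted and 303 to 360 on fed arrays), which turned positive under 3 of the alternative scalings. Enteroendocrine and tuft cell markers had a median of 0.17 over 9 (21.7 to 41.8 on fasted and 19.9 to 51.1 on fed arrays). Stromal, vessel and leukocyte markers had a median of -0.09 over 9 (28.7 to 63.0 on fasted and 21.5 to 103 on fed arrays).

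**Figure D1:**
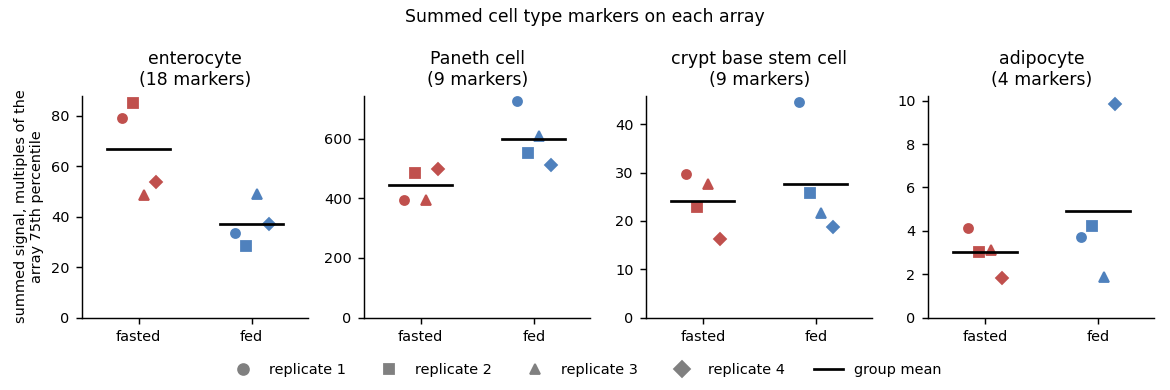
Summed linear signal of the tested markers of enterocytes, Paneth cells, crypt base stem cells and adipocytes on every array. Values are in units of the array 75th percentile, fasted left of fed, with 1 point per array and a bar at the group mean. The enterocyte markers summed to 48.4 to 85.1 on fasted arrays and 28.5 to 48.9 on fed arrays, while the Paneth cell markers summed to 395 to 499 on fasted arrays and 511 to 729 on fed arrays.

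The first group supplies glycerol 3-phosphate, and its enzymes among the 10 genes were Gk and Gpd1. Each was higher on every fasted array than on any fed array, as were 2.96% of all genes. Gk was picked for its difference, so its separation describes that choice. Gk, which phosphorylates glycerol, stood at 0.54, 0.34, -0.52 and -0.37 on fasted arrays 1 to 4, against -2.02, -2.02, -2.25 and -1.39 on fed arrays 1 to 4. The groups did not overlap. Replicates 1 and 2 were the highest fasted arrays, replicate 3 was the lowest, and replicate 4 was the highest fed array. The log2 difference was 1.92 (SE 0.32, n = 4 each), so fasted crypts held 3.78-fold more Gk signal. This difference was larger than that of 99.7% of the genes tested, which describes how Gk was chosen. Both groups were present on 3 slides, and within these the differences were 2.56, 2.59 and 1.01. The second of these slides set fasted replicate 2, a labelled male, against fed replicate 3, a labelled female. The third held fed replicate 4, whose label is in doubt, so differences within slides can also hold a difference of sex. Normexp background correction with quantile normalisation lowered the overall difference of Gk to 1.32.

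Gpd1, the cytosolic glycerol 3-phosphate dehydrogenase, stood at 3.59, 3.61, 3.91 and 3.07 on fasted arrays 1 to 4, against 2.80, 2.36, 2.45 and 2.68 on fed arrays 1 to 4. Fasted replicate 3, low for Gk, was the highest array for Gpd1. The difference was 0.97 (SE 0.22), a 1.96-fold higher level in fasted crypts, and it did not pass limma's test over all genes (adjusted p = 0.787). It was positive within all 3 shared slides, at 0.79, 1.16 and 0.39. Of the 8 genes taken by role, Gpd1 alone had every fasted array above every fed array, as had 2.96% of all genes. For 0 of the 8 genes did every fasted array lie below every fed array, where the share over all genes was 1.97%.

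In limma's test 0 of these 8 genes passed the Benjamini-Hochberg threshold over all genes, where the share of all genes that passed was 0%. Of the 8, 4 had an unadjusted p under 0.05 (Gpd1, Dgat1, Mogat2 and Lipe), against 5.95% of all genes. With slide as a fixed block in place of the sex term none of the 8 passed limma's test either, and their smallest adjusted p was 0.204. Of 19448 genes 0% passed in that fit, and 13.0% had an unadjusted p under 0.05. Fasted replicate 3 and fed replicate 2 were each alone on a slide. The slide block fit therefore took the difference only from the 3 slides that held both groups. The 8 had been chosen with earlier results of these arrays known.

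**Figure D2:**
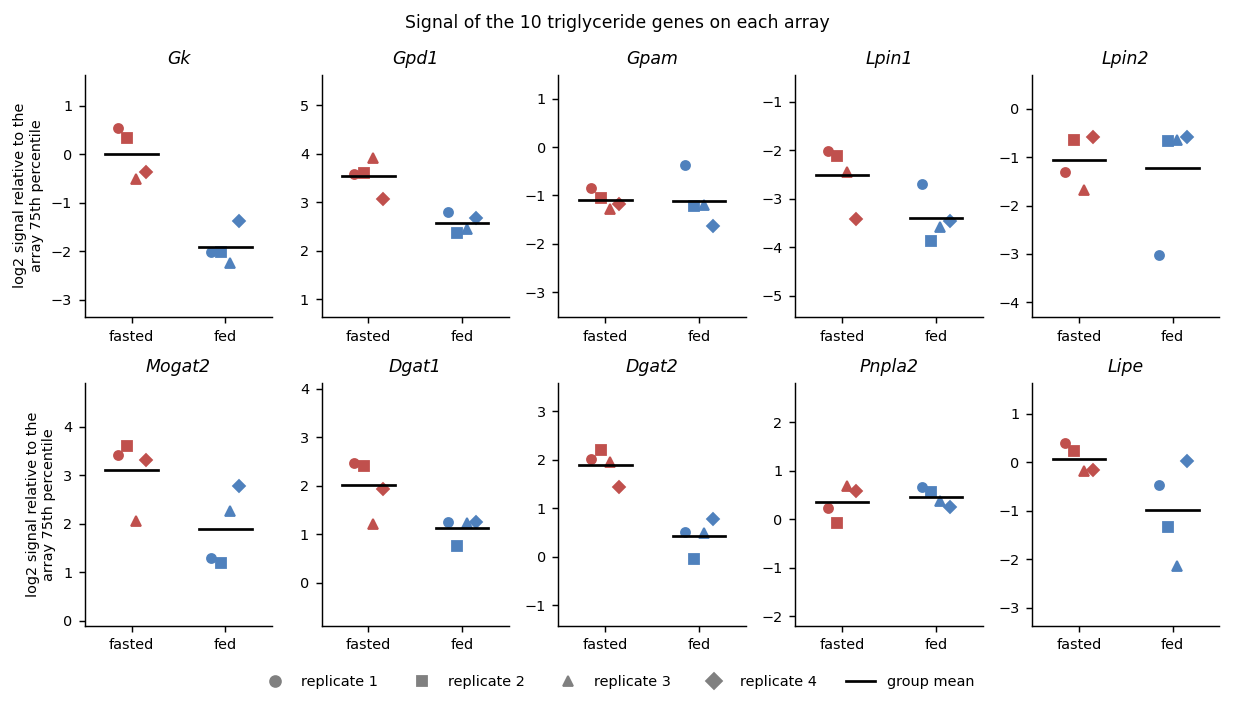
Level of each of the 10 genes on every array, as log2 signal relative to the array's 75th percentile, fasted left of fed, with group means. The fasted arrays all lie above the fed arrays for Gpd1 and for Gk and Dgat2, which were picked for their difference. For the other genes the groups overlap.

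The other genes around glycerol had smaller differences. Gk5, a relative of Gk, stood at -2.16, -2.47, -2.98 and -3.42 on fasted arrays, against -2.22, -2.04, -3.04 and -2.77 on fed arrays, a difference of -0.24 (SE 0.32). For the other copies of the gene, looked up after these values were seen, the Gk2 probe was well above background on 4 arrays and the Gykl1 probe on 0. Gpd1l, a relative of Gpd1, differed by 0.08 (SE 0.23), the mitochondrial dehydrogenase Gpd2 by -0.14 (SE 0.17) and the water and glycerol channel Aqp3 by 0.03 (SE 0.89). Aqp7, a glycerol channel of fat cells, was well above background on 3 arrays and was not tested. Pgp, a phosphatase that can release glycerol from glycerol 3-phosphate, was named after its values were seen because its groups did not overlap. It stood at 2.52, 2.42, 2.67 and 2.57 on fasted arrays, against 2.35, 2.18, 1.81 and 1.93 on fed arrays (difference 0.47, SE 0.18, adjusted p = 0.787 in limma's test). Over the 9 genes of the list 7 were tested, 5 were higher and 2 lower, and the median was 0.08. Leaving out arrays moved that median between -0.04 (without fasted replicate 4) and 0.40 (without fasted replicate 3).

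The next step attaches a fatty acid to glycerol 3-phosphate, and its mitochondrial enzyme differed little between the groups. Gpam, the mitochondrial glycerol 3-phosphate acyltransferase, stood at -0.84, -1.06, -1.29 and -1.18 on fasted arrays, against -0.37, -1.22, -1.20 and -1.64 on fed arrays. The difference was 0.02 (SE 0.28, adjusted p = 0.990 in limma's test), and fed replicates 1 and 4 were the highest and the lowest of the 8 arrays. A further Gpam probe was well above background on 0 arrays. Gpat4, a relative in the endoplasmic reticulum, differed by 0.02 (SE 0.19).

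Gpat3 and Agpat2, which act in the same membrane on the first and the second acylation, lay higher on all fasted arrays. Gpat3 stood at -0.13, 0.05, -0.16 and -0.73 on fasted arrays, against -1.70, -1.05, -1.11 and -0.78 on fed arrays, a difference of 0.91 (SE 0.30). Agpat2 stood at 1.79, 2.10, 2.19 and 1.91 on fasted arrays, against 0.98, 1.48, 1.34 and 1.42 on fed arrays, a difference of 0.69 (SE 0.20). Neither passed limma's test (adjusted p = 0.787 for each). Over the acylation list 10 of 10 were tested, 8 were higher, 2 were lower, and the median was 0.15. The highest was Gpat3 and the lowest Abhd5 (-1.81), described with the lipases below. Without fasted replicate 3 the median was 0.0018, and with slide as a fixed block it was 0.040.

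The lipins convert phosphatidate to diglyceride, and neither of the 2 followed here separated the groups. Lpin1 stood at -2.01, -2.13, -2.44 and -3.43 on fasted arrays, against -2.70, -3.87, -3.59 and -3.45 on fed arrays, and was well above background on 4 fasted and 3 fed arrays. Fasted replicate 4 lay among the fed arrays. The difference was 0.90 (SE 0.43, 1.87-fold, adjusted p = 0.787 in limma's test), and within slides it was 0.70, 1.46 and 0.02. With normexp and quantile normalisation it was 0.41. A further Lpin1 probe was well above background on 2 fasted and 0 fed arrays and failed the filter.

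Lpin2 stood at -1.30, -0.64, -1.67 and -0.59 on fasted arrays, against -3.02, -0.68, -0.65 and -0.58 on fed arrays. The low value of fed replicate 1 set the sign: the difference was 0.18 (SE 0.57, adjusted p = 0.942 in limma's test) and -0.43 without that array. The other Lpin2 probe that passed the filter differed by 0.07 (SE 0.62). Lpin3, the further member of the family, differed by 0.53 (SE 0.26). All 6 phosphatases of the list were higher in fasted crypts (median 0.41), where 44.5% of all genes were. Of the 6, 0 separated the groups, against 2.96% of all genes with fasted above fed and 1.97% with fasted below fed.

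Of the enzymes that add fatty acids to monoglyceride and diglyceride, Dgat2 separated the groups, but it was picked for that difference and not tested. Dgat1 and Mogat2, taken by role, also had positive differences but overlapped and did not pass the test, where 0% of all genes passed. Dgat2, which completes triglyceride and is the main such enzyme of liver and fat, stood at 2.00, 2.19, 1.95 and 1.44 on fasted arrays 1 to 4, against 0.50, -0.044, 0.49 and 0.78 on fed arrays 1 to 4. Every fasted array lay above every fed array, with fasted replicate 4 and fed replicate 4 nearest each other. The log2 difference was 1.47 (SE 0.26), or 2.77-fold, which was larger than the difference of 99.1% of the genes tested and again describes the choice. Within slides the differences were 1.51, 1.70 and 0.66.

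Dgat1, the other enzyme of this last step and prominent in the small intestine, stood at 2.47, 2.42, 1.22 and 1.94 on fasted arrays, against 1.24, 0.76, 1.23 and 1.25 on fed arrays. Fasted replicate 3 lay below 3 of the fed arrays, and the other 3 fasted arrays lay above all of them. The difference was 0.89 (SE 0.29, 1.86-fold, adjusted p = 0.787 in limma's test), 1.15 without fasted replicate 3, and 1.23, 1.19 and 0.69 within slides.

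Mogat2, the monoglyceride acyltransferase of the gut, stood at 3.42, 3.61, 2.06 and 3.32 on fasted arrays, against 1.30, 1.18, 2.27 and 2.78 on fed arrays. Fasted replicate 3 again lay among the fed arrays, below fed replicates 3 and 4. The difference was 1.22 (SE 0.46, 2.33-fold, adjusted p = 0.787 in limma's test), 1.68 without fasted replicate 3, and 2.12, 1.34 and 0.54 within slides. Mogat1, a relative outside the gut, was well above background on 0 arrays. Tmem68, the remaining gene of this list, was at -0.67 (SE 0.94). Of 5 genes 4 were tested, 3 were higher and 1 lower, and the median was 1.06. The enterocyte markers had medians of 1.58, 1.32 and 0.67 within the same 3 slides.

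**Figure D3:**
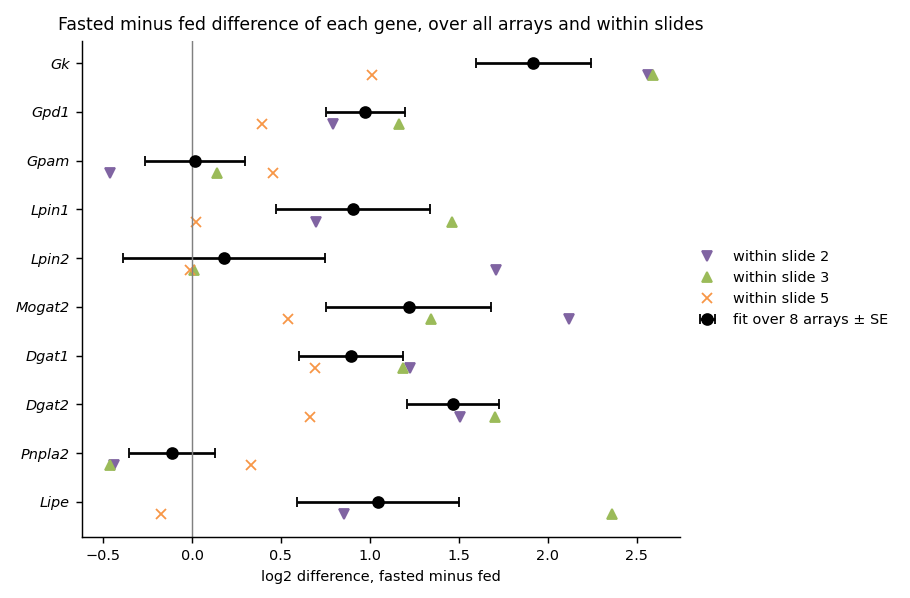
Fasted minus fed difference of each of the 10 genes on the log2 scale with its standard error, and the difference within each of the 3 slides that both groups shared. Gk (1.92) and Dgat2 (1.47) were chosen for this difference, Gpam (0.02), Lpin2 (0.18) and Pnpla2 (-0.11) lie near 0, and the third shared slide gives smaller differences than the first for Gk, Dgat2, Mogat2 and Gpd1.

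The lipases that open stored triglyceride gave a difference near 0 for Pnpla2 and a positive one for Lipe, and neither passed the test. Pnpla2, adipose triglyceride lipase, which takes the first fatty acid off triglyceride, stood at 0.23, -0.083, 0.69 and 0.58 on fasted arrays, against 0.66, 0.57, 0.38 and 0.25 on fed arrays. The groups overlapped throughout, and the difference was -0.11 (SE 0.24, adjusted p = 0.910 in limma's test). Pnpla2 was the only one of the 10 genes on the lower side, and without fasted replicate 2 its difference was 0.04.

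Lipe, hormone-sensitive lipase, which acts mainly on diglyceride, stood at 0.39, 0.22, -0.19 and -0.16 on fasted arrays, against -0.46, -1.33, -2.14 and 0.02 on fed arrays. The fed arrays spread widely, and fed replicate 4 lay above fasted replicates 3 and 4. The difference was 1.05 (SE 0.45, 2.06-fold, adjusted p = 0.787 in limma's test). It was 0.65 without fed replicate 3 and 1.51 without fed replicate 4, and 0.86, 2.36 and -0.17 within slides.

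Partners and relatives of these lipases lay on both sides of 0. Mgll, monoglyceride lipase, differed by 0.35 (SE 0.32), G0s2, an inhibitor of Pnpla2, by -0.22 (SE 0.32) and Lipa, the lysosomal lipase, by -0.08 (SE 0.30). Abhd5, the activator of Pnpla2, had the lowest difference of the list at -1.81 (SE 0.96). It stood at -1.36, -0.33, -5.22 and -0.16 on fasted arrays, against 0.70, -0.14, -0.21 and -0.16 on fed arrays, with fasted replicate 3 far below all other arrays. Ces2a, a carboxylesterase of the gut and liver, had the highest difference at 1.34 (SE 0.45), with 3.67, 2.85, 2.23 and 2.08 on fasted arrays, against 2.37, 0.38, 1.40 and 1.33 on fed arrays. Its relative Ces2e differed by 0.30 (SE 0.24). Of 18 genes 15 were tested, 10 were higher and 5 lower, the median was 0.35, and 6 had an unadjusted p under 0.05, against 5.95% of all genes. The median was 0.58 without fasted replicate 2, 0.59 without fed replicate 1 and 0.17 without fed replicate 2. Ces2c was the gene whose fasted arrays all lay above the fed arrays, of which only 3 had a value.

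Lipid droplet and fatty acid genes were read from lists by role. Plin3, a droplet coat protein, stood at 3.33, 3.48, 3.43 and 3.02 on fasted arrays, against 2.41, 2.41, 2.62 and 2.70 on fed arrays, a difference of 0.78 (SE 0.18) with no overlap. Plin4, another coat protein, had the highest difference at 1.11 (SE 0.38), and Plin2 was at 0.16 (SE 0.60). Cideb, which enlarges lipoprotein particles in liver, was at 0.73 (SE 0.35), Cidec at 0.37 (SE 0.44), Fitm2, which acts in droplet formation, at 0.20 (SE 0.22), and Cidea was lowest at -0.41 (SE 0.52). None passed limma's test (smallest adjusted p = 0.787). Of 14 genes 11 were tested, 9 were higher and 2 lower, and the median was 0.20.

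Of 12 genes of fatty acid uptake and activation 11 were tested, 8 were higher and 3 lower, and the median was 0.31, or 0.096 without fed replicate 2 and 0.20 without fasted replicate 3. Acsl5, an acyl-CoA synthetase abundant in the gut, was at 0.31 (SE 0.24), Acsl3 was highest at 0.59 (SE 0.53), Slc27a4, a fatty acid transport protein, was at -0.53 (SE 0.60), and Acsl6 was lowest at -0.99 (SE 0.65). Cd36 was well above background on 1 array.

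Without the 10 genes, the lists held 63 genes, of which 53 were tested. Of these 40 were higher in fasted crypts and 13 lower, where 44.5% of all genes were higher. Their median was 0.31, against -0.06 over all genes, and it ran from 0.17 (without fed replicate 2) to 0.34 over the alternatives. Of the 53, 0 passed limma's test, 10 had an unadjusted p under 0.05 (5.95% of all genes had) and 5 had all fasted arrays above all fed arrays (2.96% of all genes had). The 5 were Pgp, Gpat3, Agpat2, Plin3 and Ces2c, the last with 3 fed values. The share over all genes counts only genes with a value on all 8 arrays, so Ces2c would not count by that rule. The enterocyte markers had a median of 1.13 on the same arrays, and their part in these values was not tested.

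**Figure D4:**
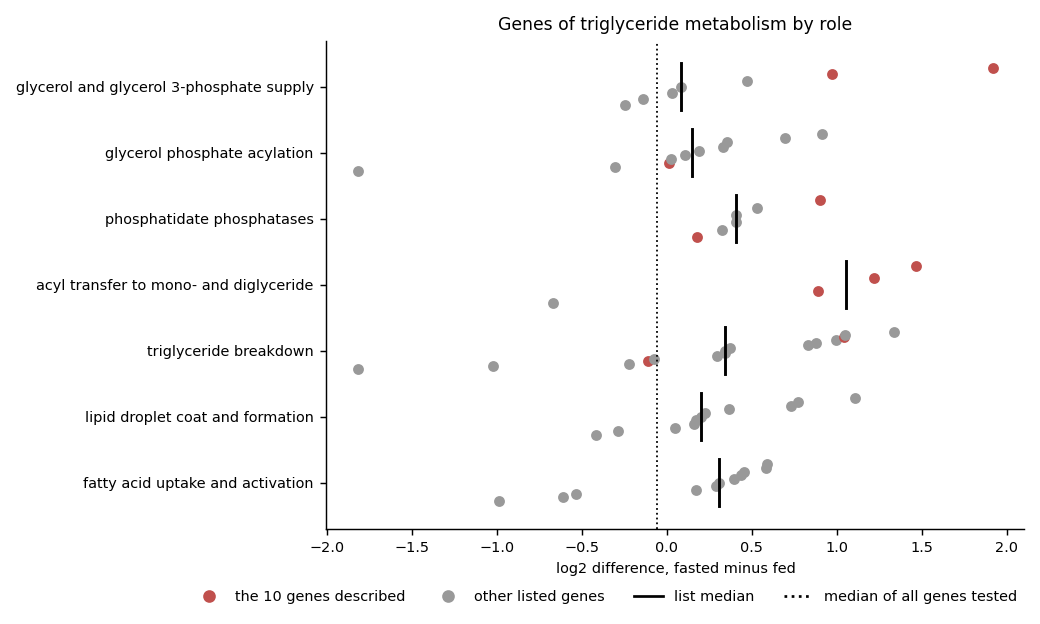
Fasted minus fed difference (log2) of every tested gene of the 7 pathway lists, 1 list per line, with the list's median. Gk and Dgat2 are the highest of their lists, and the median ranges from 0.08 for glycerol supply to 1.06 for acyl transfer.

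The 10 genes did not share one order of arrays. Among the 4 fasted arrays, replicate 3 was the lowest for 6 of the 10 and replicate 4 for 3. Among the fed arrays, replicate 2 was the lowest for 5, and the highest was replicate 4 for 6 and replicate 1 for 4. To compare patterns, each gene was centred on its mean over the 8 arrays, and the mean absolute difference between genes was taken, lower values meaning closer patterns. The closest pair was Gpd1 and Dgat2 at 0.26, followed by Gpd1 and Lpin1 at 0.30 and by Dgat1 and Dgat2 at 0.33. Gk and Dgat2 were at 0.35, and the farthest pair was Lpin1 and Lpin2 at 1.15.

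Among 13635 genes compared, those closest to Gk were Chp2 (0.22), a calcium-binding partner of sodium/proton exchangers, Cyp4b1 (0.28), a cytochrome P450, Iqgap2 (0.28), a scaffold protein, Enpep (0.31), a brush border peptidase, and Erich4 (0.31). The median distance to Gk over all these genes was 1.00. Chp2 stood at 2.16, 1.58, 0.66 and 0.75 on fasted arrays, against -0.54, -0.84, -0.42 and 0.15 on fed arrays, with replicates 1 and 2 the highest fasted arrays, as for Gk. Closest to Dgat2 were H2-T18 (0.14), an MHC class I-like molecule, Erlin1 (0.16), a membrane protein of the endoplasmic reticulum, Cyp4f40 (0.17), a cytochrome P450, Slc7a9 (0.17), an amino acid transporter, and Prkg2 (0.17), a cGMP-dependent kinase. The median distance to Dgat2 was 0.78. Enpep and Slc7a9 are also on the enterocyte list. All these likenesses rest on the same 8 arrays and include the difference between the groups.

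**Figure D5:**
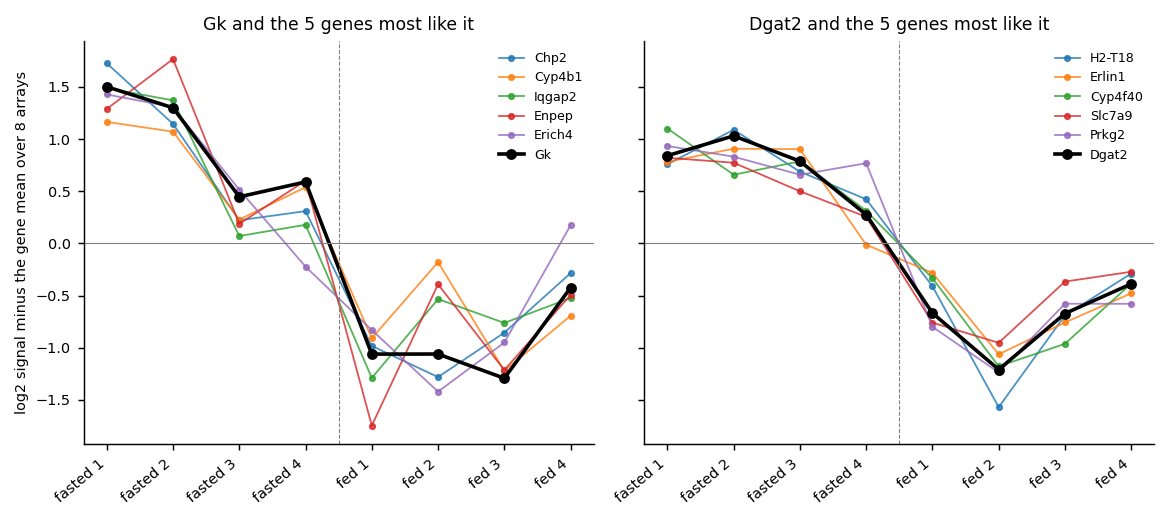
Centred log2 levels of Gk and Dgat2 with the 5 genes closest to each, over the 4 fasted and 4 fed arrays. Lines only join the values of 1 gene, and the mean absolute distances are 0.22 to 0.31 for Gk and 0.14 to 0.17 for Dgat2.

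Labelled sex was not used to choose the genes. In labelled males against labelled females, 0 of the 10 genes passed limma's test (0% of all genes did), and 0 had an unadjusted p under 0.05, against 2.27% of all genes. Gk averaged -0.79 in labelled males and -1.13 in labelled females (difference 0.34, SE 0.32). Dgat2 averaged 1.16 in labelled males and 1.17 in labelled females. The largest were Lpin1 at 0.55 (SE 0.43), Lpin2 at -0.54 (SE 0.57) and Gpam at 0.46 (SE 0.28).

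The fasted minus fed difference was also read within each labelled sex. It was 2.46 in labelled males and 1.38 in labelled females for Gk. For Dgat2 it was 1.87 in labelled males and 1.06 in labelled females, and for Dgat1 1.44 and 0.34. Of the 10 genes Mogat2 had the widest gap, 2.28 in labelled males and 0.16 in labelled females (interaction 2.11, SE 0.60, adjusted p = 0.758 in limma's test). The labelled females include fed replicate 4, whose label is in doubt. Of the fed arrays it was the highest for Gk, Dgat2, Dgat1 and Mogat2. The interaction passed for 0 of the 10 genes and for 0% of all genes (3.20% had an unadjusted p under 0.05). Without fasted replicate 4, whose absence leaves fasted replicate 3 as the only fasted female, 2219 genes (11.4% of all) passed, and Mogat2 was the 1 of the 10 among them (adjusted p = 0.0182 in limma's test), a share near that of all genes. That fit assumes that the lone fasted female array, which stood apart, varies like the other groups.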

How the data were processed

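Cy5-labelled cDNA was hybridised to Agilent mouse arrays, as described in the labels. Per the submitters' processing notes, Agilent Feature Extraction 11.5.1.1 produced the deposited scanner files, whose spot intensity is linear and background-subtracted. The authors' deposited matrix holds log2 values whose scaling and centring are not given in the sources used here (column medians 7.73 to 8.33); its ranks follow the processed signal (Spearman correlation of at least 0.999 across probes). Control spots and flagged outlier spots were left out (2 to 146 probes per array without a value), no spot was saturated, and 0 of 28 array pairs were identical. Names came from accessions in a RefSeq table of GRCm38.p6 (27649 probes) or from the files (11780); positions are mm9.

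Processed signals were put on the log2 scale, the 75th percentile of the array was subtracted, and limma 3.58.1 (eBayes with trend, R 4.3.3) fitted group plus labelled sex, with p-values adjusted by Benjamini-Hochberg at 0.05. A probe entered if 4 or more of the 8 arrays had it well above background, and the brightest such probe represented its gene. The test was checked on simulated data. The simulated arrays varied independently of each other, so the check does not cover arrays that share a slide. The 10 genes, the lists and the rule for named genes (all 10, a fixed set by role, each list's highest and lowest, and the 5 closest to Gk and to Dgat2) were chosen with earlier results of these data known. Alternatives were normexp (offset 50), other scalings, other probe rules and filters, the authors' matrix, slide or replicate number as a block, no sex term, no variance trend, and leaving out each array. The labels call the arrays biological replicates.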

Additional observations from a re-analysis of the deposited data

Results flagged for a closer look

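In 92 checks of a gene in a group of 4 arrays, 4 arrays stood far from the other 3, and chance flags about 1 in 20. Lpin2 was at -3.02 on fed replicate 1, where the other fed arrays lay between -0.68 and -0.58. Dgat1 was at 0.76 on fed replicate 2, where the others lay between 1.23 and 1.25. Abhd5 was at 0.70 on fed replicate 1, where the others lay between -0.21 and -0.14. Erlin1 was at -1.11 on fasted replicate 4, where the others lay between -0.32 and -0.20.

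For 2 genes the groups separated in opposite directions in the labelled sexes, with both fasted arrays of a sex on one side of both its fed arrays. Pnpla2 was at -0.55 in labelled males and 0.32 in labelled females, a gap of -0.87. Slc27a4 was at 0.55 in labelled males and -1.61 in labelled females, a gap of 2.15. Neither gap passed limma's interaction test over all genes (adjusted p = 0.758 for each). The share of all genes with this pattern is not given, so the count of 2 cannot be set against it. The female side rests in part on fed replicate 4, whose label is in doubt.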

How the results depend on the processing

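In limma's test 0 genes passed between fasted and fed crypts under every alternative run, with smallest adjusted p from 0.115 (slide as a fixed block) to 0.999. Gk ran from 1.32 (normexp) to 2.20 (without fed replicate 4) and Dgat2 from 1.27 (normexp) to 1.65 (without fasted replicate 4), on the log2 scale. Leaving out each array in turn, 0 to 5 genes passed for labelled sex and 0 to 2219 for feeding by labelled sex. Of the 5 genes closest to Gk, 1 stayed among the closest 5 with normexp, 3 with quantile normalisation and 3 in the authors' matrix, and 1 to 4 when an array was left out. Of those closest to Dgat2 the counts were 2, 2 and 1, and 1 to 4.

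The Paneth cell median shrank to -0.12 with normexp and -0.15 with quantile normalisation. Signs turned for small differences, and the cause was not tested. Leaving out arrays gave -0.12 to 0.22 for Gpam, -0.43 to 0.54 for Lpin2 and -0.22 to 0.037 for Pnpla2, and medians of -0.039 to 0.40 for glycerol supply, -0.55 to 0.21 for adipocyte, -0.13 to 0.27 for stem cell and -0.054 to 0.60 for enteroendocrine and tuft cell markers. With slide as a fixed block the medians were 0.29 for adipocyte, -0.044 for stem cell, -0.14 for enteroendocrine and tuft cell and 0.0037 for stromal markers. With slide as a random block Gpam was at -0.027, and the medians were 0.032 for adipocyte and -0.079 for enteroendocrine and tuft cell markers. With normexp the medians were 0.070 for adipocyte and 0.063 for goblet cell markers, and for goblet cell markers 0.090 with quantile normalisation and 0.038 in the authors' matrix.

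By the labels, replicates of the groups share only a number. Deviations of same-numbered arrays correlated at 0.37, -0.47, -0.45 and 0.61, and replicates 1 and 4, the positive pairs, also shared a slide. Over the 3 shared slides the correlations were 0.37, 0.54 and 0.61. In a fit with a replicate block and no sex term, 0 genes passed (smallest adjusted p 0.753), Gk was at 1.92, Dgat2 at 1.47, and the adipocyte median was 0.28. Slide as a fixed block was not run for labelled sex or its interaction, and Lpin1 was not tested where all 8 arrays had to be above background. Signal over background limits Lpin1 most, since 3 of 4 fed arrays were above it.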
